A study of Sus scrofa with 36 samples.

Results

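DNAJB11, MANF, HYOU1 and SDF2L1 encode proteins of the endoplasmic reticulum that help secreted proteins to fold. They were described here in the mammary gland of 36 pigs. The genes were chosen by name, with earlier results of these data known. For each, the probe set annotated to that gene alone was taken, with the highest mean over the 36 arrays where there were several. Each of the 4 genes had 1 such probe set, among 20792 probe sets that represent 6360 named genes. Ssc.22038.1.S1_at measured DNAJB11, Ssc.20071.1.S1_at measured MANF, Ssc.2087.1.S1_at measured HYOU1 and Ssc.12412.1.A1_at measured SDF2L1.

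The animals were young females of the Yucatan miniature breed (age 5 months); each of 9 groups held 4 of them, and each had its own array. The 4 sham pigs underwent an operation that left the ovaries in place and received saline for 13 days. The remaining 32 pigs had their ovaries removed and all spent the first 8 days on bromocriptine, which activates dopamine receptors and so suppresses prolactin release. For 5 further days they received bromocriptine alone (B), with estrogen (BE), with progesterone (BP) or with both steroids (BEP), or in its place haloperidol, which blocks those receptors and so lets prolactin rise, alone (H) or with estrogen (HE), progesterone (HP) or both (HEP). All pigs were injected with BrdU before the end of the study. Every ovariectomized group, H, HE, HP and HEP included, thus carries the ovariectomy and the earlier bromocriptine. Prolactin itself was not measured in the data used here, and the drugs stand in for low and high prolactin.

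Secreted and membrane proteins enter the endoplasmic reticulum unfolded. There the HSP70-type chaperone BiP, the product of HSPA5, binds and releases them in cycles driven by ATP. DNAJB11 (ERdj3) carries a J domain and hands unfolded chains to BiP, and SDF2L1 is a partner of DNAJB11 that keeps such chains from clumping. HYOU1 (GRP170) is a large relative of HSP70 that exchanges the nucleotide of BiP, and MANF is a small protein that binds BiP and can be secreted. All 4 are known targets of the unfolded protein response, the program by which cells enlarge this folding machinery when its load rises. The mammary epithelium secretes large amounts of casein and whey protein in lactation, and its endoplasmic reticulum expands with it.

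The deposited values are on a scale read as log2, and arrays have no read depth, so the number of animals limits the precision. The array medians lay between 7.83 and 7.91 and the upper quartiles between 9.49 and 9.57. DNAJB11 lay above the upper quartile of its array in 33 of 36 animals, HYOU1 in 35 and MANF in 36, and SDF2L1 in 0 of 36, with 21 animals above the array median. Epithelial genes marked the labelled tissue: all 17 measured markers of luminal cells, among them the keratins KRT8 (mean 12.5) and KRT18 (10.9) and the adhesion genes EPCAM (11.6) and CDH1 (11.9), lay above the lower quartile in every array. Bulk RNA cannot tell fewer cells of a type from less RNA per cell. BP animal 1 stood apart from its group: its score for 13 milk protein genes (the mean of the genes, each centred over all arrays) was 2.29, against -1.998 to 0.17 in the rest of the group, its cell cycle score was 1.35 against -1.17 to -1.06, and its skeletal muscle score 3.53 against -1.08 to 0.76. Without it the BP means (n = 3) were 9.76 ± 0.26 for DNAJB11, 11.0035 ± 0.48 for MANF, 9.74 ± 0.15 for HYOU1 and 7.91 ± 0.16 for SDF2L1, and the comparisons of BEP and HP with BP are given with and without that animal. Other groups were not uniform either. B animal 2 was at 10.18 for the milk gene WAP, against 3.24 to 4.52 in the rest of its group. For the milk gene CSN3 it was at 12.26, against 4.36 to 6.78. Skeletal muscle scores reached 6.86 in B and 4.95 in H, above that of BP animal 1. The cause of these departures was not tested.

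All 4 genes had their highest group mean in HE, the group given haloperidol with estrogen, and all 4 rose there over H. None of them passed the test when estrogen was added to bromocriptine alone or when haloperidol alone replaced it. In HEP, which adds progesterone, DNAJB11 and MANF had nearly the means of HE, while the means of HYOU1 and SDF2L1 lay lower by amounts that did not pass.

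DNAJB11 was at 11.24, 11.78, 11.32 and 11.32 in the 4 HE animals and at 11.55, 11.29, 11.49 and 11.26 in the HEP animals. It was at 10.35, 10.25, 9.44 and 9.51 in H, and at 10.89, 9.32, 9.58 and 10.47 in HP. Every animal that received haloperidol with estrogen was thus above every animal that received haloperidol without it. Under bromocriptine the values were 10.34, 10.48, 10.34 and 10.15 in B, 10.22, 10.33, 10.77 and 10.12 in BE, and 10.41, 10.53, 10.64 and 10.29 in BEP. These 3 groups overlapped with each other, and all lay below HE and HEP. BP held the widest spread, 11.77, 9.67, 10.05 and 9.55, with animal 1 within the range of HE. The sham animals, at 10.62, 10.92, 10.69 and 10.58, lay below every HE and HEP animal and overlapped with BE and BEP.

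MANF followed the same order at its upper end, with 12.49, 12.52, 12.19 and 12.54 in HE and 12.47, 12.30, 12.45 and 12.24 in HEP. It was at 11.71, 11.33, 10.69 and 11.33 in H and at 11.98, 10.92, 11.04 and 11.72 in HP, all below the lowest HE animal. The bromocriptine groups lay closer to the top than for DNAJB11. BE was at 12.15, 12.07, 12.01 and 11.44, BEP at 12.09, 11.87, 12.28 and 11.83, and B at 11.67, 11.88, 11.36 and 11.69. BEP overlapped with both HE and HEP, and BE came within the spread of neither. BP animal 1, at 12.61, was the highest of all 36 animals, where the other BP animals were at 10.46, 11.18 and 11.37. The sham animals were at 12.05, 11.87, 12.26 and 11.80.

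HYOU1 was at 10.88, 10.84, 10.55 and 11.08 in HE and lower in HEP, at 10.76, 10.27, 9.997 and 10.14. H was at 10.14, 9.92, 9.68 and 9.35 and HP at 10.52, 9.89, 9.87 and 10.07, so that HEP and HP overlapped while HE lay above H in every animal. The gene was also high in the intact gland, at 10.62, 10.24, 10.58 and 10.76 in sham. B, at 9.66, 9.76, 9.54 and 10.14, lay below every sham animal, as did BE, at 10.12, 10.16, 10.09 and 10.10. BP was at 10.40, 9.67, 9.63 and 9.90 and BEP at 10.53, 9.78, 10.01 and 9.74, each with animal 1 the highest.

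SDF2L1 was at 9.05, 9.43, 9.26 and 9.42 in HE, and only BP animal 1 (9.20) and HEP animal 1 (9.15) came within that range. HEP was split, at 9.15, 8.01, 8.87 and 7.75. H was at 8.22, 8.19, 8.19 and 7.44 and HP at 8.52, 8.24, 8.43 and 8.45. The bromocriptine groups held the lowest values: 7.37, 7.61, 7.09 and 8.01 in B, 7.81, 7.31, 7.23 and 7.34 in BE, and 7.86, 8.15, 7.54 and 7.09 in BEP. The other BP animals were at 7.85, 7.79 and 8.10, and the sham animals, at 8.59, 8.15, 7.74 and 9.01, spread over most of the range between B and HE.

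**Figure D1:**
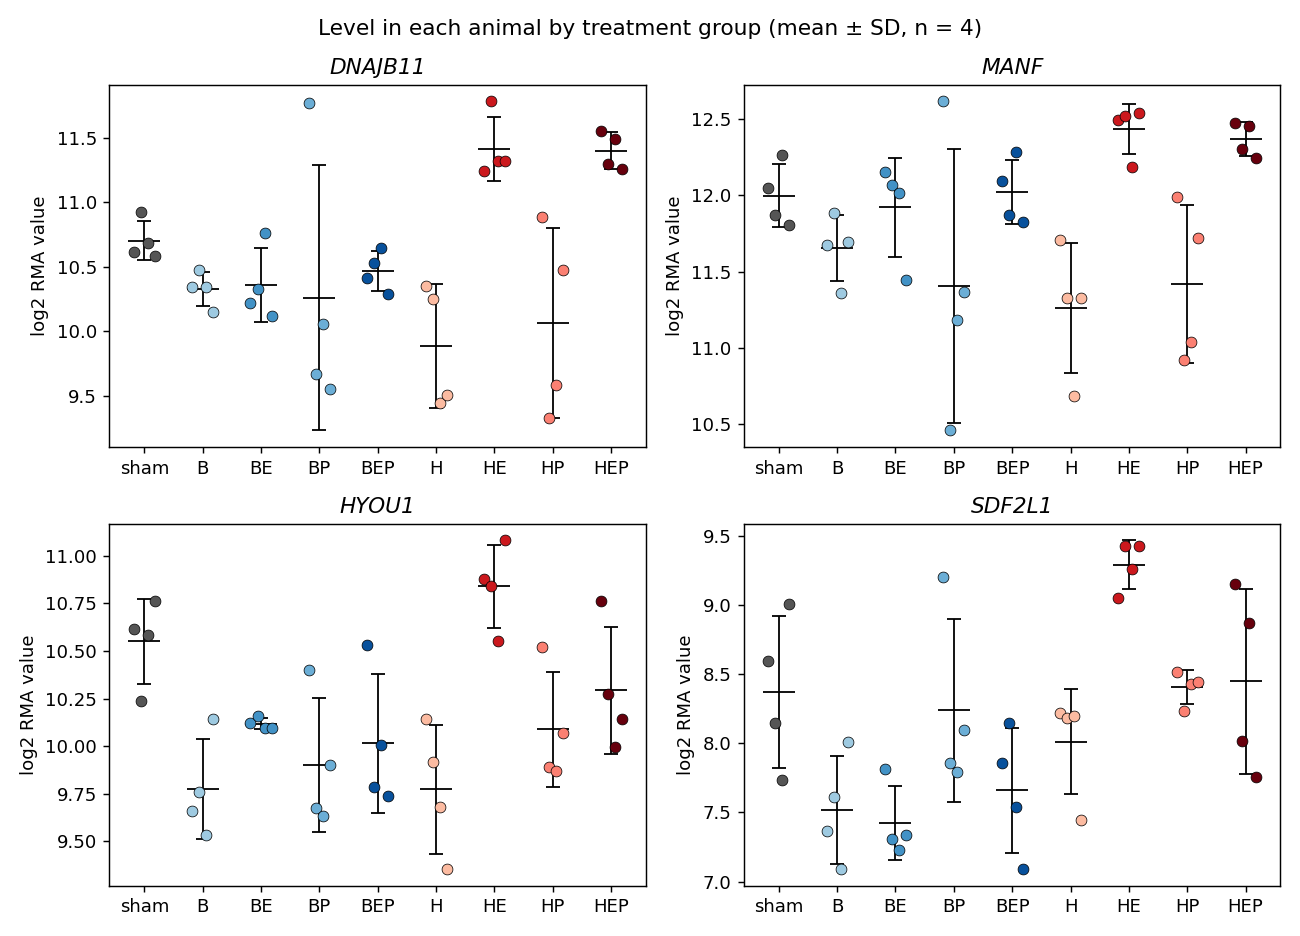
Level of DNAJB11, MANF, HYOU1 and SDF2L1 (log2 RMA value, vertical axis, scaled per gene) in each of 36 pigs by treatment group; points are animals 1 to 4 from left to right and the black bars are the mean ± SD (n = 4). The HE animals lie above the H animals for all 4 genes, the HEP animals lie above the HP animals for DNAJB11 and MANF, and BP animal 1 is the highest of its group in every panel.

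By group means, HE ranked highest for each gene, at 11.41 ± 0.25 (SD, n = 4) for DNAJB11, 12.43 ± 0.17 for MANF, 10.84 ± 0.22 for HYOU1 and 9.29 ± 0.18 for SDF2L1. HEP followed for DNAJB11 (11.40 ± 0.14) and MANF (12.37 ± 0.11), less than the larger SD below HE. For DNAJB11 the next step, from HEP to sham (10.70 ± 0.15), exceeded the larger SD and the ranges did not overlap. The step from sham to BEP (10.47 ± 0.15) exceeded it too, with ranges that overlapped. From BEP down to H (9.89 ± 0.48) no neighbouring groups differed by more than the larger SD. For MANF the step from HEP to BEP (12.02 ± 0.21) exceeded it although the ranges overlapped, and no later step did. For HYOU1 the order ran from HE to sham (10.55 ± 0.22), HEP (10.29 ± 0.33), BE (10.12 ± 0.03), HP (10.09 ± 0.30), BEP (10.02 ± 0.36), BP (9.90 ± 0.35), B (9.77 ± 0.26) and H (9.77 ± 0.34), and only the first step was larger than the larger SD of its pair. For SDF2L1 HEP (8.45 ± 0.67), HP (8.41 ± 0.12), sham (8.37 ± 0.55), BP (8.24 ± 0.66) and H (8.01 ± 0.38) followed at steps smaller than the larger SD, as did BEP (7.66 ± 0.45), B (7.52 ± 0.39) and BE (7.42 ± 0.27), and only the step from HE to HEP exceeded it, with ranges that overlapped. H had the lowest mean for DNAJB11, MANF and HYOU1 (for HYOU1 level with B), and BE for SDF2L1. Without BP animal 1, the BP means of DNAJB11 (9.76), MANF (11.0035) and HYOU1 (9.74) lay below those of H.

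Estrogen was the agent with the widest effect. Changes are log2 differences ± SE from limma, fitted to all probe sets and all 36 arrays, with p-values adjusted by Benjamini and Hochberg over the 20792 probe sets, and an adjusted p under 0.05 was called. Averaged over its 4 backgrounds (16 animals with and 16 without), estrogen raised DNAJB11 by 0.77 ± 0.16 (adjusted p = 0.000559), MANF by 0.75 ± 0.14 (adjusted p = 0.000183) and HYOU1 by 0.43 ± 0.11 (adjusted p = 0.00211). SDF2L1 differed by 0.16 ± 0.15 (adjusted p = 0.443). These 3 of 4 genes stand beside 17.5% of all probe sets that rose and 17.6% that fell with estrogen, so that a call alone sets no gene apart.

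The 4 backgrounds gave different values. Added to haloperidol (HE against H), estrogen raised all 4 genes: DNAJB11 by 1.53 ± 0.33 (adjusted p = 0.00168), SDF2L1 by 1.28 ± 0.31 (adjusted p = 0.00425), MANF by 1.17 ± 0.29 (adjusted p = 0.00472) and HYOU1 by 1.07 ± 0.21 (adjusted p = 0.000785). In that comparison 9.81% of probe sets rose and 10.1% fell, and in 12.4% every HE animal lay above every H animal, as for these 4 genes. The 4 calls were kept without any single array.

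Added to bromocriptine (BE against B), estrogen moved DNAJB11 by 0.03 ± 0.33, SDF2L1 by -0.10 ± 0.31, MANF by 0.27 ± 0.29 and HYOU1 by 0.34 ± 0.21. None was called by limma, and none was under 0.05 before adjustment either, beside 2.88% of probe sets that rose. The 95% intervals reached 0.70 for DNAJB11, 0.53 for SDF2L1, 0.85 for MANF and 0.78 for HYOU1, so rises up to those sizes lie within the error.

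With progesterone present the genes differed in their values. Under haloperidol (HEP against HP) DNAJB11 rose by 1.33 ± 0.33 (adjusted p = 0.00648) and MANF by 0.95 ± 0.29 (adjusted p = 0.0226), beside 8.84% of probe sets that rose and 12.6% in which every HEP animal lay above every HP animal. HYOU1 differed by 0.21 ± 0.21 (adjusted p = 0.539) and SDF2L1 by 0.04 ± 0.31 (adjusted p = 0.947). The call of MANF was lost without HEP animal 1 (0.92, adjusted p = 0.0519), HP animal 2 (0.78, adjusted p = 0.104) or HP animal 3 (0.83, adjusted p = 0.0914). Whether estrogen acted more on DNAJB11 and MANF than on HYOU1 and SDF2L1 here was not tested.

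Under bromocriptine with progesterone (BEP against BP) the differences were 0.21 ± 0.33 for DNAJB11, 0.61 ± 0.29 for MANF, 0.11 ± 0.21 for HYOU1 and -0.58 ± 0.31 for SDF2L1. Limma called none of the 4, and MANF was the 1 gene under 0.05 before adjustment (adjusted p = 0.281), beside 0.587% of probe sets that rose. Without BP animal 1 the MANF difference was 1.01 and was called (adjusted p = 0.00959), and that of DNAJB11 was 0.71 and was not. Without that animal HYOU1 differed by 0.28 and SDF2L1 by -0.26, neither called. Array weights also called MANF (0.82, adjusted p = 0.0393). For MANF, the call in this comparison thus depended on that animal.

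The test of the difference between backgrounds is the interaction of estrogen with haloperidol, given as the estrogen effect under haloperidol minus that under bromocriptine, averaged over progesterone. It was 1.31 ± 0.33 for DNAJB11 (adjusted p = 0.0164) and 1.00 ± 0.31 for SDF2L1 (adjusted p = 0.0453), and both passed, beside 3.87% of probe sets with a positive interaction. MANF, at 0.62 ± 0.29 (adjusted p = 0.174), and HYOU1, at 0.41 ± 0.21 (adjusted p = 0.233), did not pass. The DNAJB11 call was kept without any single array. That of SDF2L1 was near the threshold: without any of 18 arrays in turn the adjusted p lay between 0.0532 and 0.0814, the latter without BP animal 1 (0.84). Those arrays were BP 1, HEP 1, B 2, BE 2, HE 2, HP 2, BE 3, BEP 3, H 3, HE 3, HP 3, HEP 3, B 4, BE 4, BEP 4, H 4, HE 4 and HP 4. MANF was called without BP animal 2 (0.78, adjusted p = 0.0470).

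Haloperidol in place of bromocriptine, averaged over 4 steroid backgrounds, raised SDF2L1 by 0.83 ± 0.15 (adjusted p = 0.00101), beside 3.85% of probe sets that rose. HYOU1 differed by 0.30 ± 0.11 (adjusted p = 0.0851), DNAJB11 by 0.34 ± 0.16 (adjusted p = 0.221) and MANF by 0.12 ± 0.14 (adjusted p = 0.667). Without BP animal 1 the differences of DNAJB11 (0.46, adjusted p = 0.0143) and HYOU1 (0.34, adjusted p = 0.0279) were called, and without BEP animal 1 that of HYOU1 was called (0.34, adjusted p = 0.0382). Array weights called both too (0.43, adjusted p = 0.0271, and 0.33, adjusted p = 0.0217). HYOU1 was also called with the letter in the sample title as a block (adjusted p = 0.0442), although no label says what the letters mark.

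Without estrogen, no difference between haloperidol and bromocriptine was called for the 4 genes. H against B gave -0.44 ± 0.33 for DNAJB11, -0.39 ± 0.29 for MANF, 0.00 ± 0.21 for HYOU1 and 0.49 ± 0.31 for SDF2L1, and HP against BP gave -0.19, 0.01, 0.19 and 0.17 in the same order. Limma called 0 of 4 in each, with 0 under 0.05 before adjustment, beside 0.0289% of probe sets higher in H and 0% higher in HP, where 500 probe sets were higher at an unadjusted p under 0.05. Without BP animal 1, HP against BP gave 0.31 for DNAJB11, with the sign turned, 0.41 for MANF, 0.35 for HYOU1 and 0.49 for SDF2L1, none called. With estrogen, HE against BE, SDF2L1 rose by 1.87 ± 0.31 (adjusted p = 0.000246), DNAJB11 by 1.06 ± 0.33 (adjusted p = 0.0356) and HYOU1 by 0.72 ± 0.21 (adjusted p = 0.0249), beside 5.46% of probe sets that rose. MANF differed by 0.51 ± 0.29 (adjusted p = 0.261), although every HE animal lay above every BE animal for all 4 genes, as in 9.07% of probe sets.

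The SDF2L1 rise in HE over BE was called without any single array, and the other 2 calls depended on single arrays. That of DNAJB11 was lost without BE animal 1, 2 or 4 or HE animal 2, 3 or 4 (adjusted p from 0.0632 to 0.111), and that of HYOU1 without BE animal 1, 2 or 4 or HE animal 2 or 4 (adjusted p from 0.0542 to 0.0889), while the differences stayed between 0.93 and 1.19 and between 0.64 and 0.82. With both steroids, HEP against BEP, DNAJB11 differed by 0.93 ± 0.33 (adjusted p = 0.166), SDF2L1 by 0.79 ± 0.31 (adjusted p = 0.223), MANF by 0.35 and HYOU1 by 0.28. None was called by limma, DNAJB11 and SDF2L1 were under 0.05 before adjustment, and 0.635% of probe sets rose. Every HEP animal lay above every BEP animal for DNAJB11, as in 6.02% of probe sets, and this difference was called with array weights (0.85, adjusted p = 0.0146) and in the fit to those 2 groups alone (adjusted p = 0.0292).

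**Figure D2:**
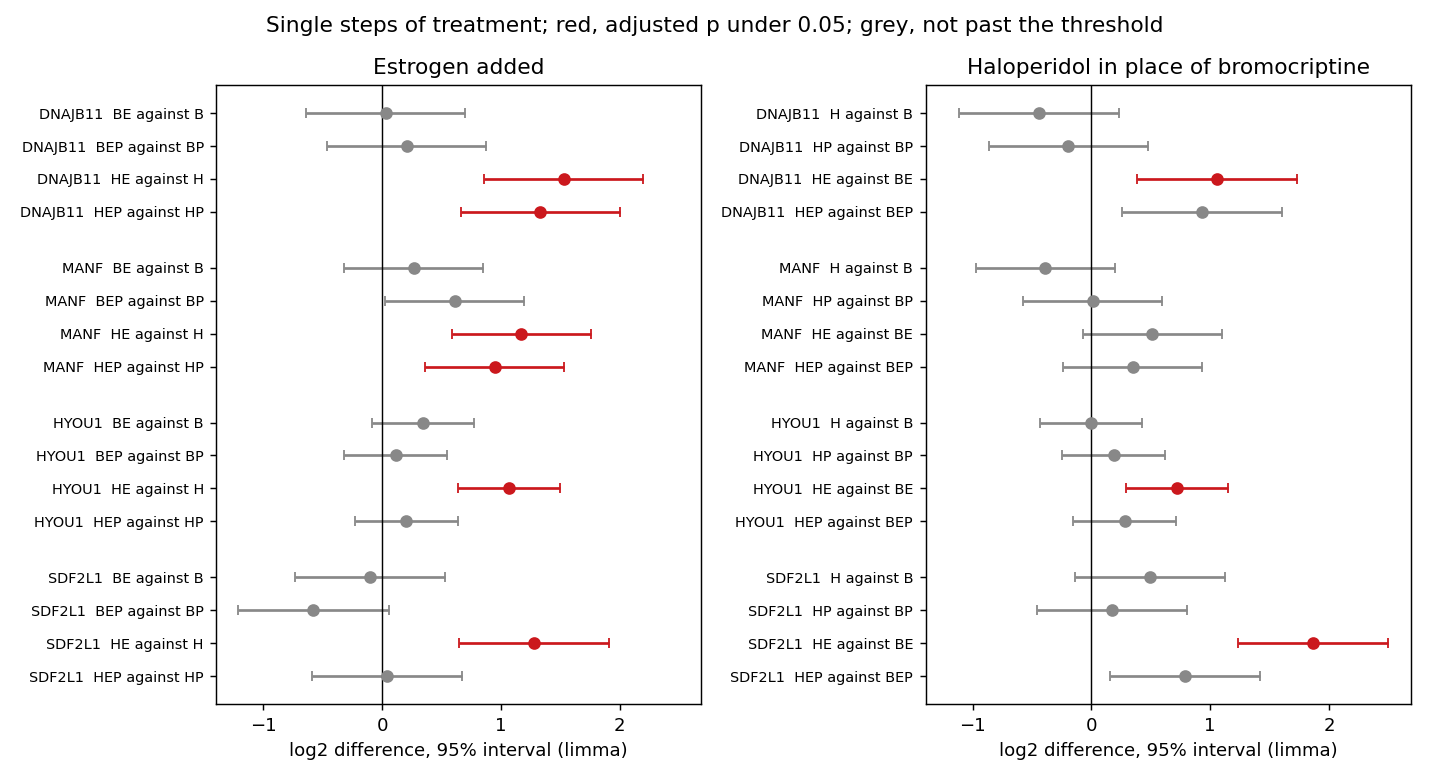
Log2 differences (horizontal axis, point) with 95% intervals from limma (bars, n = 4 animals a group) when estrogen was added (left) or haloperidol replaced bromocriptine (right), in each of 4 backgrounds, for DNAJB11, MANF, HYOU1 and SDF2L1; red marks an adjusted p under 0.05. Estrogen added to haloperidol is red for all 4 genes (1.07 to 1.53), estrogen added to bromocriptine is red for none, and haloperidol is red only in HE against BE, for 3 of the 4 genes.

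Progesterone had no called effect on the 4 genes. Its average effect was 0.05 ± 0.16 for DNAJB11, -0.01 ± 0.14 for MANF, -0.05 ± 0.11 for HYOU1 and 0.13 ± 0.15 for SDF2L1. Limma called none, with 0 of 4 under 0.05 before adjustment, beside 0.077% of probe sets that rose and 0.0144% that fell. In the single steps SDF2L1 was higher by 0.72 ± 0.31 in BP against B (adjusted p = 0.425, under 0.05 before adjustment), where 0.00962% of probe sets rose, and the BP mean includes animal 1. In HP against H it was higher by 0.40 ± 0.31, where limma called 0% of probe sets higher (258 at an unadjusted p under 0.05) and in 1.24% every HP animal lay above every H animal, as for SDF2L1. HYOU1 and SDF2L1 had lower means in HEP than in HE, by 0.55 ± 0.21 (adjusted p = 0.345) and by 0.84 ± 0.31 (adjusted p = 0.302), with 3 of 4 HEP animals below every HE animal for each. Neither passed, although both were under 0.05 before adjustment. DNAJB11 differed by -0.02 and MANF by -0.07 in HEP against HE, where 0.173% of probe sets fell. The interaction of estrogen with progesterone was -0.86 ± 0.31 for SDF2L1 (adjusted p = 0.292), -0.55 ± 0.21 for HYOU1 (adjusted p = 0.337), 0.06 for MANF and -0.01 for DNAJB11. None was called by limma, and 0.164% of probe sets had a positive and 0.0866% a negative interaction. The interaction of progesterone with haloperidol and that of all 3 agents were called for none of the 4 genes either, and limma called 0 probe sets in both. At an unadjusted p under 0.05 the former held 1 of the 4 (SDF2L1, -0.70 ± 0.31) and the latter 0.

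Against the intact gland, HYOU1 was the 1 gene of the 4 with a called difference in B or H. It fell by 0.78 ± 0.21 in B (adjusted p = 0.0312), beside 2.62% of probe sets that fell, and by 0.78 ± 0.21 in H (adjusted p = 0.0310), beside 2.46%. The B call was lost without B animal 1, 2 or 3 or sham animal 1 or 4 (adjusted p from 0.0665 to 0.117) and when the fit held those 2 groups alone (adjusted p = 0.127), with the difference between -0.90 and -0.70. The H call was lost without H animal 2, 3 or 4 or sham animal 1 or 4 (adjusted p from 0.0523 to 0.136) and in the fit to those 2 groups alone (adjusted p = 0.0726). The other differences of B from sham were -0.37 ± 0.33 for DNAJB11, -0.34 ± 0.29 for MANF and -0.85 ± 0.31 for SDF2L1 (adjusted p = 0.578, 0.554 and 0.113), and without sham animal 3 that of SDF2L1 was -1.06 and was called (adjusted p = 0.0456). In H, DNAJB11 differed from sham by -0.82 ± 0.33 (adjusted p = 0.160) and MANF by -0.73 ± 0.29 (adjusted p = 0.148), and every H animal was below every sham animal for these and HYOU1, as in 7.22% of probe sets. Both were called with array weights (-0.79, adjusted p = 0.0186, and -0.65, adjusted p = 0.0302), as was SDF2L1 in B (-1.12, adjusted p = 0.0124). Ovariectomy and bromocriptine differ together between B and sham, so their parts cannot be told apart.

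HE did not differ from the intact gland by a called amount for any of the 4. DNAJB11 was higher by 0.71 ± 0.33 (adjusted p = 0.229) and SDF2L1 by 0.92 ± 0.31 (adjusted p = 0.0901), each with every HE animal above every sham animal, as in 5.03% of probe sets, MANF by 0.44 ± 0.29 and HYOU1 by 0.29 ± 0.21. Limma called 0 of 4 in HE, with DNAJB11 and SDF2L1 under 0.05 before adjustment, beside 2% of probe sets that rose. In HEP the differences from sham were 0.70 ± 0.33 for DNAJB11 (adjusted p = 0.272), 0.37 for MANF, 0.08 for SDF2L1 and -0.26 for HYOU1. None was called, DNAJB11 was the 1 gene under 0.05 before adjustment, and 0.38% of probe sets rose. With array weights DNAJB11 was called against sham in both HE (0.79, adjusted p = 0.0384) and HEP (0.69, adjusted p = 0.0289).

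The 4 genes belong to a larger folding and export machinery. Lists of 142 other genes of protein processing in the endoplasmic reticulum were drawn up by function, and 95 were measured. Estrogen on average raised 44 of the 95 and lowered 5 (median 0.24), where 20.1% of the 6360 named genes rose and 18.6% fell (median 0.03). In HE against H 34 rose and 2 fell (median 0.46), where 13.4% of named genes rose and 9.83% fell (median 0.06). The rises in DNAJB11, MANF, HYOU1 and SDF2L1, 1.07 to 1.53, all exceeded the list median of 0.46. The 4 genes and the lists were chosen with earlier results of these data known, so this is no independent evidence. Without HE animal 2 the 34 became 22. For the average effect of haloperidol 11 of 95 rose and 0 fell, where 5.86% of named genes rose, and the count was 18 without BP animal 1 and 7 without H animal 1 or 3, HEP animal 2, B animal 3, BEP animal 3 or HE animal 3. These counts describe the list and were not tested as a set.

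Closest to the 4 genes stands the BiP system itself. Of 6 other measured members, 2 rose with estrogen on average, where 20.1% of named genes rose. HSPA5, the chaperone that DNAJB11, HYOU1 and MANF bind, rose by 0.38 ± 0.12 (adjusted p = 0.0151). HSPA13, an atypical HSP70 of microsomes, rose by 0.68 ± 0.17 (adjusted p = 0.00227). DNAJC3, a J domain co-chaperone that also restrains the kinase PERK, rose in HE against H by 0.88 ± 0.22 (adjusted p = 0.00472) and with haloperidol on average by 0.40 ± 0.11 (adjusted p = 0.0196). HSPA5 in HE against H was 0.65 ± 0.24 (adjusted p = 0.0535). DNAJB9, a J domain protein induced through IRE1 signalling, was at 0.33 ± 0.31 there (adjusted p = 0.483).

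Of 11 other chaperones of the compartment, 4 rose with estrogen on average, where 20.1% of named genes rose. They were HSP90B1 (GRP94, 0.49 ± 0.11), SERPINH1, the collagen chaperone HSP47 (0.75 ± 0.13), CNPY2 (0.54 ± 0.12) and GANAB, the glucosidase II subunit that trims N-glycans (0.33 ± 0.08). HSP90B1 rose in HE against H by 0.84 ± 0.21 (adjusted p = 0.00624). CALR, calreticulin, was at 0.52 ± 0.33 there (adjusted p = 0.285) and CRELD2, a folding factor often induced together with MANF, at 0.79 ± 0.31 (adjusted p = 0.0736). CRELD2 fell in B against sham by 1.08 ± 0.31 (adjusted p = 0.0450) and rose in HE against BE by 0.96 ± 0.31 (adjusted p = 0.0466).

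Among 20 genes of disulfide formation and prolyl isomerization 11 rose with estrogen on average, where 20.1% of named genes rose. In HE against H, where 13.4% of named genes rose and 9.83% fell, 6 of the 20 rose and 1 fell. ERO1A, the oxidase that drives disulfide formation, rose there by 2.06 ± 0.47 (adjusted p = 0.00258). FKBP11, a prolyl isomerase of secretory cells, rose by 1.07 ± 0.28 in HE against H and by 1.04 ± 0.14 with haloperidol on average (adjusted p = 1.92e-05). PDIA4, a disulfide isomerase, rose on average with estrogen by 0.16 ± 0.06 (adjusted p = 0.0281). Among 21 genes of translocation into the compartment 9 rose and 0 fell in HE against H, with SEC11C of the signal peptidase at 0.97 ± 0.25. Among 22 genes of N-glycosylation 10 rose and 0 fell, with GFPT1, which makes the sugar precursor, at 1.84 ± 0.39 and DDOST of the oligosaccharyl transferase at 1.01 ± 0.23. Among 15 genes of degradation from the compartment 5 rose, SELENOS (0.98 ± 0.22) and VCP (0.79 ± 0.21) among them, and FAM8A1 fell by 1.06 ± 0.19.

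Genes that carry the signal of the unfolded protein response are listed apart. Of 10 measured, 0 rose with estrogen on average by limma (2 at an unadjusted p under 0.05) and 2 fell, where 18.6% of all named genes fell: DDIT3, the pro-death factor CHOP, by 0.50 ± 0.10 (adjusted p = 0.000425) and PPP1R15A, the stress-induced phosphatase subunit GADD34, by 0.49 ± 0.10 (adjusted p = 0.000454). Without BP animal 1 the number that rose was 2, and without HE animal 3 or BE animal 4 it was 1. In HE against H DDIT3 fell by 0.66 ± 0.21 (adjusted p = 0.0215) and PPP1R15A by 0.64 ± 0.20 (adjusted p = 0.0242), while PPP1R15B, the constitutive counterpart, rose by 0.72 ± 0.25 (adjusted p = 0.0381). XBP1, the factor that IRE1 activates by splicing, differed by 0.04 ± 0.17 (adjusted p = 0.898) and ATF4, the factor translated when PERK is active, by 0.32 ± 0.20 (adjusted p = 0.279). The array reads RNA level, and neither splicing of XBP1 nor translation of ATF4 was measured. ATF6, HERPUD1 and SIL1 were not analysed here.

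Of 28 measured chaperone genes of the cytosol and mitochondria 13 rose and 1 fell with estrogen on average, where 20.1% of named genes rose, and 9 rose and 0 fell in HE against H, where 13.4% rose. FKBP4, a co-chaperone of steroid receptors, rose by 1.97 ± 0.36 there, DNAJA1 by 1.28 ± 0.39 and STIP1, the HSP70 to HSP90 adaptor, by 1.06 ± 0.36. With haloperidol on average limma called 0 of the 28, with 4 higher and 2 lower at an unadjusted p under 0.05.

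**Figure D3:**
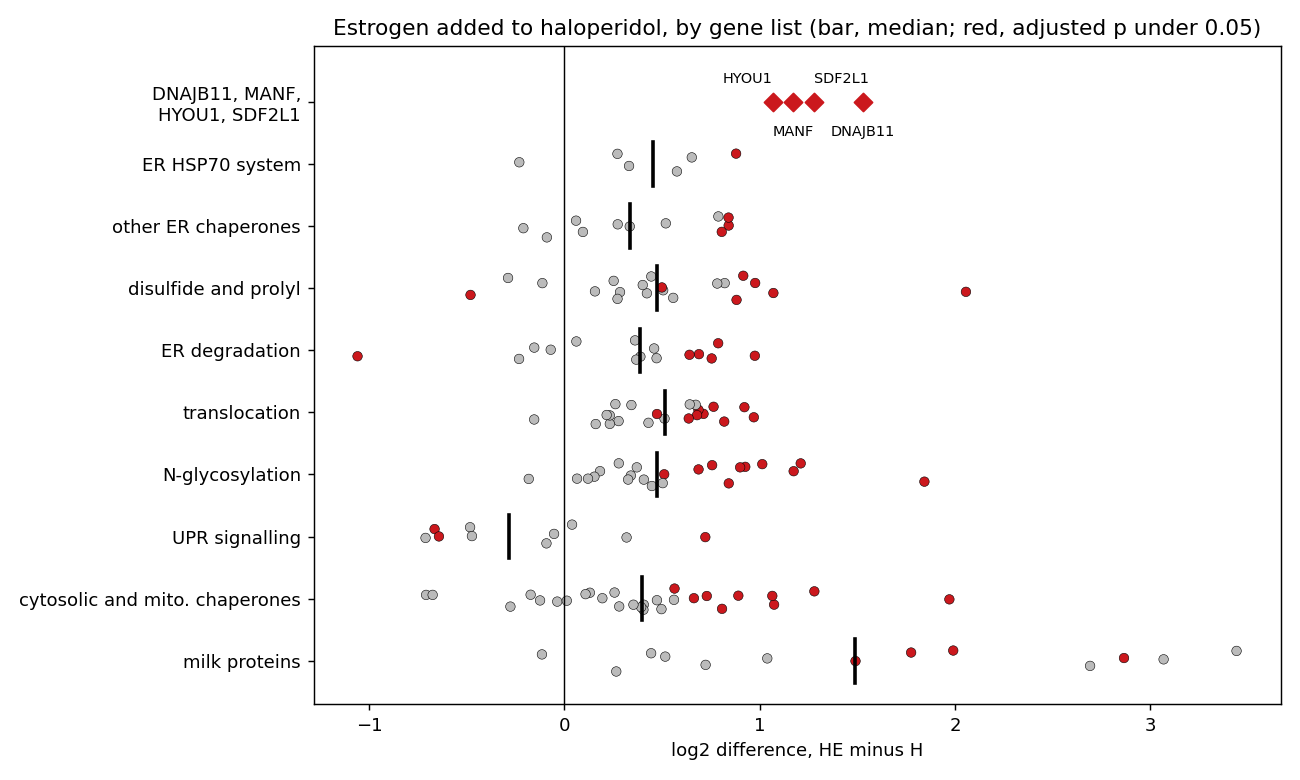
Log2 difference between HE and H (horizontal axis) for DNAJB11, MANF, HYOU1 and SDF2L1 (diamonds) and for each measured gene of 9 lists (circles, 1 row per list, spread vertically only for legibility); black bars are list medians and red marks an adjusted p under 0.05. The 4 genes lie at 1.07 to 1.53, right of the medians of the endoplasmic reticulum lists, and the median of unfolded protein response (UPR) signalling genes lies at -0.28.

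Some markers of cell types moved in the same comparison, HE against H, where 13.4% of named genes rose and 9.83% fell. In it 4 of 17 luminal markers rose (CLDN3 by 1.36 ± 0.34, ST14 by 1.31 ± 0.36 and CLDN7 by 1.26 ± 0.41 among them) and FOXA1 fell by 1.63 ± 0.37. The score of the 17 lay between -0.27 and 0.07 in H and between -0.04 and 0.40 in HE. All 17 measured cell cycle genes rose, with scores of -1.34 to -1.07 in H and 1.06 to 1.60 in HE. Of 10 adipocyte markers 7 fell, with scores of 0.75 to 1.12 in H and -1.26 to -0.77 in HE, and of 11 macrophage and leukocyte markers 6 fell. Of 14 skeletal muscle markers 5 fell, with scores of 0.26 to 4.95 in H (median 0.66) and -1.37 to -0.98 in HE. Many muscle markers were near the floor: ATP2A1 lay below the lower quartile in 32 of 36 arrays and NEB in 31, against 5 for DES and 0 for TNNI2. Plasma cells also carry large amounts of these chaperones. Of 15 of their markers and those of B cells 5 were measured, with scores of -0.13 to 0.24 in H and 0.03 to 0.17 in HE; JCHAIN, the joining chain of secreted antibodies, was measured (mean 8.41), and CD38 lay below the lower quartile in all 36 arrays. The part of these shifts in the chaperone results was not tested.

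The load that the 4 chaperones serve in lactation is milk protein, so their levels were set beside the milk genes. Haloperidol on average raised 12 of 13 measured milk protein genes and lowered 0 (median 3.34), where 5.86% of named genes rose and 2.36% fell. Among the 12, CSN2 (beta-casein) rose by 3.71 ± 0.68, WAP (whey acidic protein) by 4.62 ± 0.75 and LALBA (alpha-lactalbumin) by 3.70 ± 0.96. Estrogen on average raised 1 of the 13, LTF, lactoferrin, where 20.1% of named genes rose. Under haloperidol without progesterone the milk genes were nevertheless higher with estrogen, as the 4 chaperone genes were. The score of the 13 lay between -0.0025 and 1.99 in H and between 2.39 and 2.82 in HE. LALBA was at 9.18 ± 2.97 (SD, n = 4) in H and 12.62 ± 0.14 in HE. CSN2 was high in all 4 haloperidol groups, at 11.8 ± 0.31 (SD, n = 4) in H, 12.27 ± 0.09 in HE, 11.99 ± 0.38 in HP and 11.3 ± 0.93 in HEP. In H, with CSN2 above its sham level of 10.7 ± 0.30, DNAJB11, MANF and HYOU1 had their lowest group means. Without BP animal 1, the BP means of DNAJB11, MANF and HYOU1 lay below those of H. SDF2L1, the 1 gene of the 4 called for the average effect of haloperidol, had its highest means in HE, HEP and HP, and its H mean lay above those of B, BE and BEP. WAP was at 10.3 ± 2.68 in H, 13.0 ± 0.23 in HE, 11.7 ± 1.15 in HP and 9.56 ± 2.65 in HEP. HEP and H, which differ in both estrogen and progesterone, thus did not differ in WAP beyond their spread. DNAJB11 was at 11.40 ± 0.14 in HEP and 9.89 ± 0.48 in H, and HEP against H was not tested.

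Within groups the chaperone and milk genes were positively correlated, and the calls depended on single animals, BP animal 1 most of all. After the group means were taken off, the 4 genes were correlated over 36 animals with CSN2, CSN1S1, CSN3, LALBA and WAP (20 pairs, permutation test with 100000 resamples within groups, two-sided, adjusted over the 20). All 20 correlations were positive and 12 were called. DNAJB11 was called with each of the 5, from r = 0.29 with CSN2 (adjusted p = 0.0265 by permutation, rho = 0.35 with adjusted p = 0.0649) to r = 0.50 with LALBA (adjusted p = 0.0228 by permutation, rho = 0.41 with adjusted p = 0.0436). HYOU1 with WAP had r = 0.59 (rho = 0.49) and SDF2L1 with WAP r = 0.58 (rho = 0.52), each at a permutation adjusted p of 0.0228 for r and 0.0436 for rho. MANF was called with CSN2 alone (r = 0.34, permutation adjusted p = 0.0394, rho = 0.43 with adjusted p = 0.0436).

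Without BP animal 1, whose milk and chaperone genes were both high, 0 of 20 pairs were called by the permutation test. All 20 correlations stayed positive, for example 0.52 for HYOU1 with WAP (permutation adjusted p = 0.0827) and 0.30 for DNAJB11 with WAP (permutation adjusted p = 0.132). Without BP animal 2, 4 pairs were called. With each of the 36 animals left out in turn, the call of SDF2L1 with CSN2 was lost 15 times and that of MANF with CSN2 10 times. When the 2 animals with the WAP values farthest from the median within their groups, B 2 and BP 1, were left out, r with WAP was 0.60 for HYOU1, 0.53 for SDF2L1, 0.29 for DNAJB11 and 0.05 for MANF. For MANF with WAP, r over all 36 animals was 0.34 and was not called (permutation adjusted p = 0.121, rho = 0.23 with adjusted p = 0.215), and most of it rested on those animals.

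**Figure D4:**
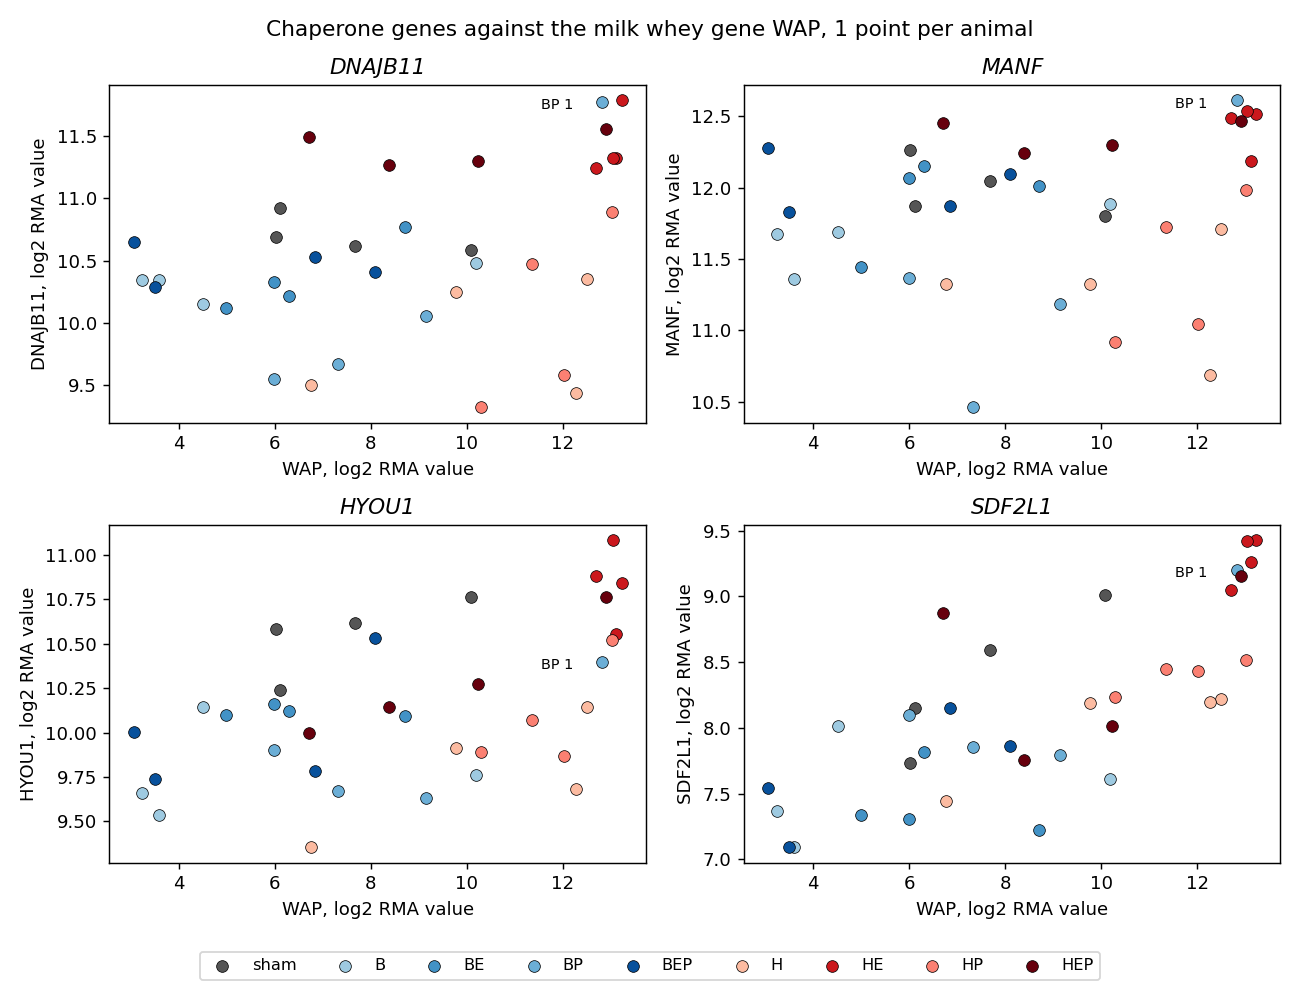
Level of each chaperone gene (vertical axis, log2 RMA value) against that of the whey gene WAP (horizontal axis, log2 RMA value), 1 point per pig, coloured by treatment group, with BP animal 1 labelled. The HE animals sit at the upper right in all 4 panels, while the H animals spread widely in WAP (6.76 to 12.5) with all 4 chaperone genes below every HE animal.

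The 4 genes were not equally alike. Over the 36 animals the correlation of DNAJB11 with MANF was 0.88, and that of HYOU1 with SDF2L1 was 0.70. The lowest of the 6 pairs was SDF2L1 with MANF, at 0.40. With group means taken off the same pairs stood at 0.82, 0.60 and 0.40, and without BP animal 1 at 0.66, 0.52 and 0.14. These values share arrays and treatments and are given as a description.

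Among 6189 named genes, those most like the mean of the 4 genes over 36 animals (Pearson r) were LRRC59 (0.94), a ribosome-binding protein of the endoplasmic reticulum membrane, SEC23B (0.93), a coat protein of the vesicles that leave it, NPM3 (0.92), a nucleoplasmin, TMEM258 (0.89), a subunit of the oligosaccharyl transferase, and ERP29 (0.89), a folding factor of its lumen. TSTA3, ELOVL1, DRG1, SLC50A1 and RUVBL1 followed, at 0.88 to 0.89. With group means taken off, SEC23B (0.88) and LRRC59 (0.85) led again. BP had the largest SD of any group for both, at 0.91 for SEC23B and 1.03 for LRRC59. None of these r values was computed again without BP animal 1. LRRC59 was at 11.39 ± 0.28 (SD, n = 4) in HE and 11.02 ± 0.29 in HEP, against 9.68 ± 0.32 in H and 10.51 ± 0.23 in sham. By single gene, the nearest to DNAJB11 was NIP7, to MANF SNRPD3, to HYOU1 ALDH18A1 and to SDF2L1 FKBP11 (0.91).

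**Figure D5:**
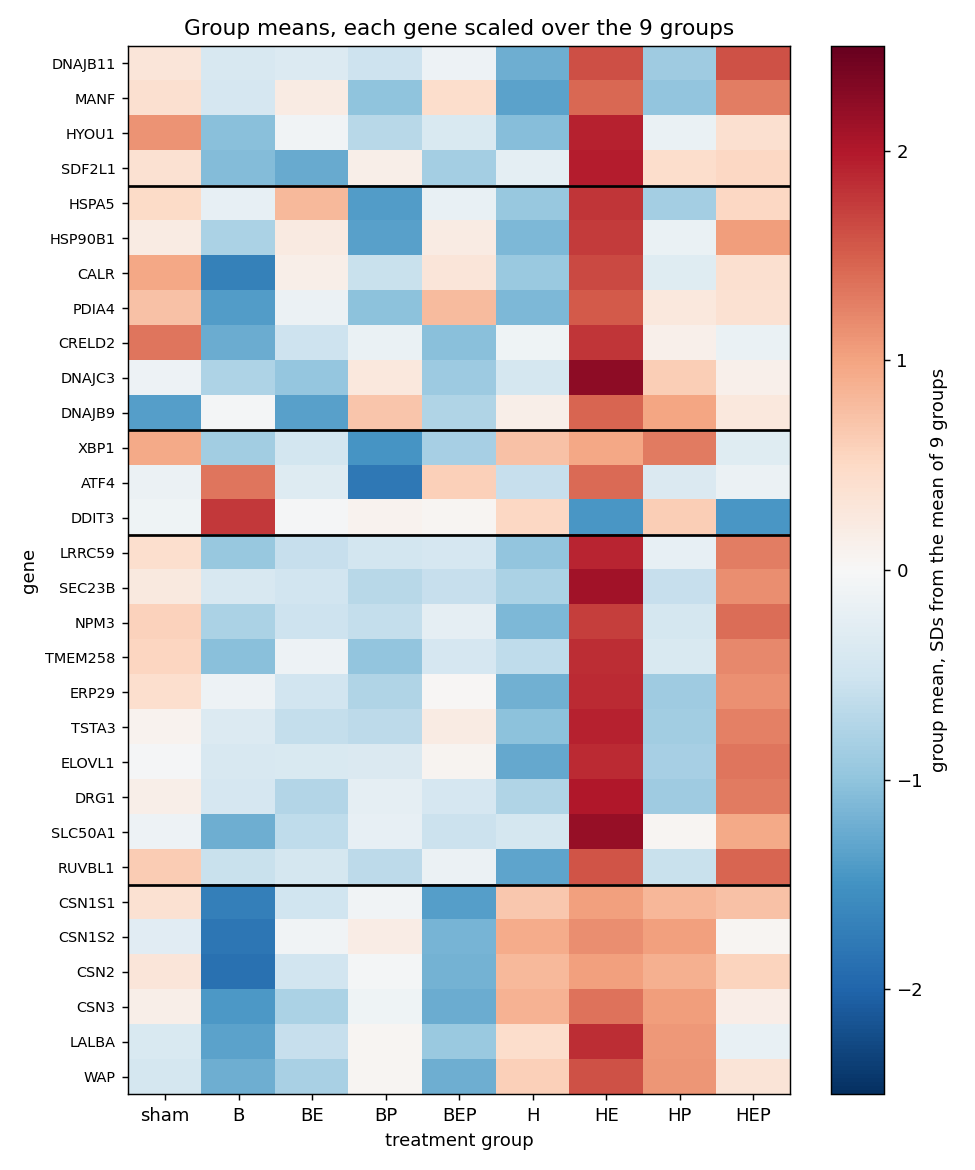
Mean of each gene in the 9 treatment groups (columns), scaled per gene to SDs from the mean of the 9 groups (colour); black lines part the 4 chaperone genes, 7 other folding genes, 3 signalling genes, the 10 genes most like the 4, and 6 milk genes. HE is the highest column for the 4 chaperone genes and for the 6 milk genes. H is the lowest for DNAJB11, MANF and HYOU1, and the milk genes are also high in H and HP. The BP column includes BP animal 1, without which the BP means of DNAJB11, MANF and HYOU1 lie below those of H.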

How the data were processed

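Total RNA from 1 mammary gland sample per pig was hybridized to 1 porcine Affymetrix array. The deposited values, normalized by the authors with RMA per the submitters' processing notes, run from 1.55 to 13.7 and were taken to be log2; no label names the base. They were used as deposited, and raw intensities were not used here. No source used here gives the RMA version or a genome build. Symbols came from the platform annotation: 9149 probe sets had 1 symbol, 178 several and 11465 none, and 9054 of the 9149 had an identifier in the RefSeq gene table.

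Groups came from the treatment labels, and arrays were treated as separate animals. limma 3.58.1 in R 4.3.3 fitted 1 mean per group to all 36 arrays (27 residual and 4.16 prior degrees of freedom, eBayes, two-sided), with Benjamini-Hochberg adjustment over 20792 probe sets within each of 27 comparisons and none across them. A list gene was represented by its brightest probe set. Permutations used scipy 1.17.1 and numpy 2.4.6, and figures matplotlib 3.10.9. The 4 genes, the 18 lists and the rules were chosen with earlier results of these data known, so no count over them is independent evidence. Named were the 4 genes, 19 fixed genes where measured, up to 4 called genes with the largest change per list and comparison, and the most alike genes.

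In a simulation on 20792 probe sets, of which 200 were changed, a log2 change of 1 was recovered for 90.5% (10 false calls) in the average effect of estrogen, 45.0% (2) in its interaction with haloperidol and 37.0% (9) in HE against H. A change of 0.5 was recovered for 36.5% (4), 1.0% (0) and 0.0% (0). In the data far more probe sets changed, 9.81% up and 10.1% down in HE against H. The adjustment was thus stricter in the simulation, and the shares recovered are not those of the data. Alternatives tried were array weights, the title letter as a block, median centring, quantile normalization applied once more, robust moderation with a variance trend, removal of dim probe sets, averaging the probe sets of a gene, a fit to the compared groups alone, and each array left out in turn.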

Additional observations from a re-analysis of the deposited data

Results flagged for a closer look

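In 3 of the 36 combinations of gene and group, 1 animal stood apart from the other 3 by the gap test at the 95% level, which chance alone would give in about 1 group in 20. HE animal 2 was at 11.78 for DNAJB11, where the other HE animals lay between 11.24 and 11.32. H animal 4 was at 7.44 for SDF2L1, where the others lay between 8.19 and 8.22. HE animal 3 was at 12.19 for MANF, below the others at 12.49 to 12.54. The effect of estrogen differed between haloperidol and bromocriptine by the interaction test for DNAJB11 (1.31, adjusted p = 0.0164) and for SDF2L1 (1.00, adjusted p = 0.0453).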

How the results depend on the processing

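The estrogen effect on DNAJB11, HYOU1 and MANF, the rise of all 4 genes in HE over H, the haloperidol effect on SDF2L1, the interaction for DNAJB11, the SDF2L1 rise in HE over BE and the DNAJB11 rise in HEP over HP kept their calls in every alternative that was run and without any single array. Of 640 values of the 4 genes under other settings, 615 kept direction and side of the threshold, 3 lost the call, 11 gained one and 11 changed sign, none of these from more than 0.195 in size. Without 1 array in turn, 1206 of 1312 were kept, 42 lost the call, 6 gained one and 58 changed sign, from at most 0.207. The cause of the changes below was not tested.

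With array weights the average effect of haloperidol was 0.43 for DNAJB11 (adjusted p = 0.0271) and 0.33 for HYOU1 (adjusted p = 0.0217), both called. The SDF2L1 interaction of estrogen with haloperidol was 0.73 (adjusted p = 0.110), no longer called, and SDF2L1 in B against sham was -1.12 (adjusted p = 0.0124), now called. Array weights also called DNAJB11 in HEP against BEP and in H, HE and HEP against sham, and MANF in BEP against BP and H against sham. Signs turned for DNAJB11 in the progesterone average (-0.032), the interaction of estrogen with progesterone (0.18), BE against B (-0.041) and HP against BP (0.18), and for SDF2L1 in BE against B (0.033), HEP against HP (-0.17) and HEP against sham (-0.37). Of the 95 genes of the endoplasmic reticulum 9 fell with estrogen and 20 rose with haloperidol. With a second quantile normalization signs turned for MANF with progesterone (4.1e-06) and in HP against BP (-0.022), for HYOU1 in H against B (0.015) and for DNAJB11 in HEP against HE (0.0019). The lower count of signalling genes with estrogen was 1 without dim probe sets, and the negative interactions among the 95 genes were 1 with the mean of all probe sets of a gene. HYOU1 in B against sham was -0.78 with only its groups (adjusted p = 0.127).

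No label says what the title letters mark, and the values do not settle whether they pair the animals. Same-letter deviations correlated at -0.41 to 0.46 over 144 pairs (median 0.045, with 52 pairs over 0.1), and 14 of 36 arrays were nearest to their own letter. With the letter as a replicate block HYOU1 gained a call for the average effect of haloperidol (0.30, adjusted p = 0.0442).

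Leaving out 1 array in turn gave these ranges. DNAJB11 went from 0.27 to 0.46 with haloperidol, -0.073 to 0.11 with progesterone, -0.13 to 0.24 in the interaction of estrogen with progesterone, -0.077 to 0.31 in that of progesterone with haloperidol, 0.93 to 1.19 in HE against BE, -0.47 to 0.31 in HP against BP, -0.074 to 0.11 in HEP against HE, -0.11 to 0.11 in BE against B and -0.030 to 0.71 in BEP against BP. HYOU1 went from -0.90 to -0.70 in B against sham, 0.26 to 0.34 with haloperidol, 0.64 to 0.82 in HE against BE, -0.059 to 0.28 in BEP against BP and -0.12 to 0.14 in H against B. SDF2L1 went from 0.84 to 1.11 in the interaction of estrogen with haloperidol, -1.06 to -0.64 in B against sham, -0.24 to 0.064 in BE against B, -0.20 to 0.27 in HEP against HP and -0.16 to 0.31 in HEP against sham. MANF went from -0.11 to 0.064 with progesterone, 0.42 to 0.78 in the interaction of estrogen with haloperidol, -0.095 to 0.26 in that of estrogen with progesterone, -0.039 to 0.32 in that of progesterone with haloperidol, -0.30 to 0.41 in HP against BP and 0.78 to 1.14 in HEP against HP. Among the 95 genes of the endoplasmic reticulum, 3 to 6 fell with estrogen, 7 to 18 rose with haloperidol, 2 to 8 had a positive and 1 to 2 a negative interaction of estrogen with haloperidol (5 and 2 with all arrays), and in HE against H 22 to 33 rose and 1 to 2 fell. Of the signalling genes 0 to 2 rose with estrogen, and of the 20 pairs with milk genes 0 to 15 were called.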
